A study of Mus musculus with 7 samples.

Results

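Myc, its partner Max and 38 genes of the nucleolus, the site of ribosome assembly in the nucleus, were followed in naive mouse CD8 T cells, in samples labelled as having the tyrosine kinase Lck switched off and in WT samples. The 40 genes were taken by name from the array annotation. All 40 were measured, of 18231 genes that passed the filter on dim probes, and all 40 were well above background on all 7 arrays. The Lck-off group held 4 samples from OT-1het, Rag-/-, Lck-/- mice, in which a doxycycline-dependent Lck had been switched off by 7 days without the drug. The WT group held 3 samples from OT-1het, Rag-/- mice with their own Lck gene. All 7 samples therefore carried one transgenic receptor and lacked Rag, and since a diet change is labelled in the Lck-off mice only, genotype, diet and the switching off of Lck cannot be told apart. What drives the inducible Lck, the diet of the WT mice and the number of animals behind a sample are unknown here, so p-values measure the spread between these samples. Lymph node cells had been sorted as CD8b+ and CD44low, the surface profile of naive cytotoxic T cells, and were not activated.

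Myc is a transcription factor that pairs with Max and binds E-box DNA. In T cells it rises after antigen receptor and cytokine signals, and it is best known there for driving cell growth, in part by raising the output of ribosomes. Ribosome assembly starts when RNA polymerase I copies the ribosomal DNA, and snoRNPs and processing factors then modify, cut and fold the transcript into the small and the large subunit.

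Expression is given here as log2 intensity relative to the 75th percentile of the same array, so that a value belongs to 1 probe and is compared between arrays, never between genes. A difference is the mean of the log2 values of Lck-off arrays minus that of WT arrays, given with its SE from a limma fit to all genes. A gene is called at a Benjamini-Hochberg adjusted p under 0.05. With 4 arrays against 3, the exact two-sided permutation test of a single value allows no p under 0.0571, which is the p of every gene whose groups do not overlap. The 75th percentile of intensity was 212 to 243 on the Lck-off arrays and 208 to 235 on the WT arrays. Lck itself had 8.52, 8.83, 8.60 and 8.55 in Lck-off cells, against 8.99, 9.02 and 8.98 in WT cells, a fall of 0.37 ± 0.09 (SE; adjusted p = 0.0493) to 77.2% of the WT level; without Lck-off replicate 2 the fall was 0.44 (adjusted p = 0.0149), and with any other array left out the adjusted p was 0.0982 to 0.154. Whether its probe lies in the part of the gene that the Lck-/- allele lacks is not given. Cd8a, Cd8b1 and Cd3e were well above background on all 7 arrays; Cd8a had 6.28 to 6.60 in Lck-off cells and 6.06 to 6.17 in WT cells, and Cd8b1 had 7.46 to 7.57 in Lck-off cells and 7.25 to 7.32 in WT cells, neither called. Cd44, whose product set the sort gate, had -2.17 to -1.35 in Lck-off cells and -0.78 to -0.54 in WT cells, a fall of 1.18 ± 0.19 (adjusted p = 0.0105). Other measures also moved with the groups. The summed linear level of 9 immature thymocyte markers was 73.7 to 91.0 in Lck-off cells and 32.1 to 36.2 in WT cells. Rag1 and Ptcra were well above background on no array. All mice were Rag-/-, so the Rag genes of this list may not report immature cells here. Of the 6 immature thymocyte markers that were measured, 4 had a higher mean in Lck-off cells and 2 a lower one. Their differences ran from -1.55 to 2.23, with a median of 0.09 and 1 called higher. The summed level of 7 CD4 or regulatory T cell markers was 24.1 to 27.5 in Lck-off cells and 21.7 to 22.5 in WT cells, and that of 8 NK cell markers was 15.1 to 18.3 in Lck-off cells and 13.2 to 14.8 in WT cells. All 10 measured macrophage, monocyte or neutrophil markers had a higher mean in Lck-off cells (median 0.65, 1 called), although the summed levels, 52.3 to 64.2 in Lck-off cells and 42.1 to 59.2 in WT cells, overlapped. Of 7 measured dendritic cell markers, 6 had a higher mean in Lck-off cells and 1 a lower one (median 1.07, 0 called). The summed level of 18 stress and sample handling genes was 740 to 1200 in Lck-off cells and 707 to 889 in WT cells. Of the 17 that were measured, 15 had a higher mean in Lck-off cells and 2 a lower one (median 0.39, 0 called). The part of these marker and handling genes in the results below was not tested. Fewer cells of a type and less RNA per cell cannot be told apart in these sorted pools.

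Myc was lower in Lck-off cells on every array, but just missed the threshold. It had 2.21, 2.15, 2.27 and 2.32 in Lck-off cells, against 2.46, 2.86 and 2.98 in WT cells. The 4 Lck-off arrays lay close together and the WT arrays were spread, WT replicate 1 lying nearest to them. The difference was -0.53 ± 0.13 (SE; 95% confidence interval -0.84 to -0.22; adjusted p = 0.0528), or 69.4% of the WT level. Myc passed the threshold under 7 of 15 other ways of processing the arrays, and without WT replicate 1 (-0.68, adjusted p = 0.0111). Within slide row 1, where WT replicate 3, the highest in Myc, was the only WT array, the difference was -0.77. Within slide row 2 the Myc difference was -0.39 and was not called (adjusted p = 0.415). Max, the partner that Myc needs to bind DNA, had 4.48, 4.49, 4.32 and 4.28 in Lck-off cells, against 4.07, 4.36 and 4.44 in WT cells. The groups overlapped, and the difference of 0.10 ± 0.11 (adjusted p = 0.685) turned to -0.01 without WT replicate 1. Only the first 30 bases of a probe are shown, read 5' to 3', to identify the transcript region that was measured; the Myc probe lies at chr15:61821417-61821476 on mm9, plus strand.
Myc probe: aacagttgaaacacaaactcgaacagcttc

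Of the 38 nucleolar genes, 1 was called lower in Lck-off cells and 0 were called higher. With Myc and Max included this is 1 of 40 members, or 2.5%, against 4.57% of all genes called lower and 3.80% called higher. A weaker pattern ran below that threshold. At an unadjusted p under 0.05, 12 members were lower and 2 higher, against 11.5% of all genes lower and 9.94% higher. The Lck-off arrays all lay below the WT arrays for 13 of 40 members, against 12.0% of all genes, and all above them for 2 members, against 9.80% of all genes. The mean was lower in Lck-off cells for 27 of 40 members, or 67.5%, against 51.7% of all genes. This share was not particular to the members. Among the lists taken up below it was 68.9% in other ribosome biogenesis genes and 79% in cytosolic ribosomal proteins, but 27.3% in the wider Myc network. The median difference of the members was -0.11, against -0.0086 over all genes tested, and the 38 nucleolar genes alone had the same median. The spread between arrays of one group was of a similar size, with an SD of 0.0769 for the members' median. The median was -0.05 when WT replicate 3 was left out and -0.17 when Lck-off replicate 2 was.

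**Figure D1:**
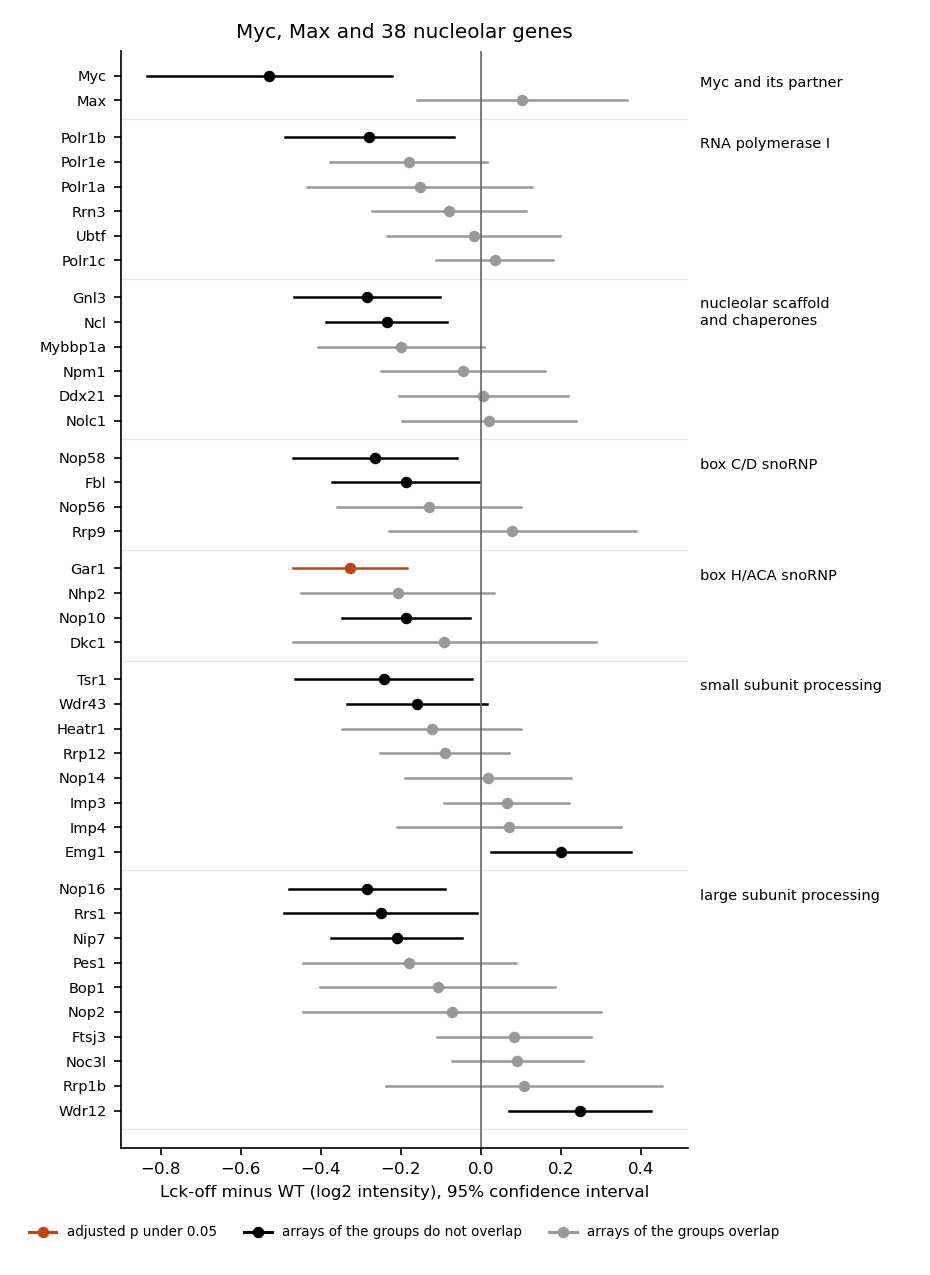
Difference of each of the 40 members, Lck-off minus WT, in log2 intensity with its 95% confidence interval, grouped by role. Gar1 (orange) is the single called member, most of the black points (groups that do not overlap) lie left of 0, and Emg1 and Wdr12 lie right of it.

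The box H/ACA snoRNPs, which turn chosen uridines of ribosomal RNA into pseudouridine, were the role group in which all 4 members had a lower mean in Lck-off cells. Over all genes, 51.7% had a lower mean. Gar1, one of the core proteins, had 4.984, 4.991, 4.997 and 4.981 in Lck-off cells, against 5.363, 5.288 and 5.295 in WT cells. Both groups were tight and far apart. Gar1 fell by 0.33 ± 0.06 (SE; adjusted p = 0.0181), to 79.7% of the WT level (95% confidence interval 72.2% to 88.0%). The call was kept without Lck-off replicate 1 or 2 (adjusted p = 0.0419 and 0.0381) and lost without any one of the other arrays, at an adjusted p of 0.0514 to 0.0678, while the difference stayed between -0.34 and -0.30. Its probe lies at chr3:129527855-129527914 on mm9, minus strand.
Gar1 probe: ctctgtgggtgcttagagaagacaggactt
Nop10, which bridges the core proteins, had 5.34, 5.35, 5.45 and 5.37 in Lck-off cells, against 5.56, 5.51 and 5.62 in WT cells. Those groups did not overlap, though the difference of -0.19 ± 0.07 was not called (adjusted p = 0.164). Nhp2, the RNA-binding core protein, overlapped between the groups at -0.21 ± 0.10, and so did Dkc1, the pseudouridine synthase itself, at -0.09 ± 0.16. The median over these 4 genes was -0.20.

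The box C/D snoRNPs, which methylate ribosomal RNA, had 3 of 4 members lower on average, against 51.7% of all genes, a median of -0.16 and no call. Nop58, a core scaffold protein, had 4.11, 3.89, 3.94 and 3.89 in Lck-off cells, against 4.12, 4.25 and 4.29 in WT cells. Lck-off replicate 1 lay just under WT replicate 1, and the other Lck-off arrays lay well below (-0.26 ± 0.09; adjusted p = 0.128). Fbl, the methyltransferase fibrillarin, had 4.49, 4.54, 4.52 and 4.40 in Lck-off cells, against 4.66, 4.58 and 4.78 in WT cells. The gap between its groups was narrow (-0.19 ± 0.08; adjusted p = 0.220). Nop56, the partner of Nop58, differed by -0.13 ± 0.10 and Rrp9, which belongs to the particle that starts small subunit processing, by 0.08 ± 0.13, both with overlap.

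Among 6 genes of RNA polymerase I, 5 were lower on average, 1 without overlap and 0 called, with a median of -0.12. Over all genes, 51.7% were lower on average and 12.0% lower without overlap. Polr1b, a large catalytic subunit, had 2.11, 2.06, 1.88 and 1.92 in Lck-off cells, against 2.17, 2.26 and 2.38 in WT cells. The groups did not overlap (-0.28 ± 0.09; adjusted p = 0.123). Polr1e, a subunit that helps the enzyme start, had 2.20, 2.34, 2.14 and 2.16 in Lck-off cells, against 2.31, 2.36 and 2.51 in WT cells. Lck-off replicate 2 lay above WT replicate 1 (-0.18 ± 0.08; adjusted p = 0.275). The largest subunit Polr1a differed by -0.15 ± 0.12, and the initiation factor Rrn3 by -0.08 ± 0.08. Polr1c, a subunit shared with RNA polymerase III (0.03 ± 0.06), and the brightest probe of the ribosomal DNA-binding factor Ubtf (-0.02 ± 0.09) had differences near 0. The first 30 bases of that Ubtf probe are almost wholly a TG repeat, and whether it reads Ubtf alone was not tested. The other Ubtf probe differed by -0.10 ± 0.11 with overlap.

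The nucleolar scaffold and chaperone genes split. Ncl, nucleolin, an abundant RNA-binding protein of the nucleolus, had 6.09, 6.03, 5.99 and 6.05 in Lck-off cells, against 6.28, 6.23 and 6.31 in WT cells. Every Lck-off array was lower, by a similar amount (-0.24 ± 0.06; adjusted p = 0.0752). Gnl3, nucleostemin, a GTP-binding protein known from stem and dividing cells, had 1.87, 1.79, 1.81 and 1.71 in Lck-off cells, against 2.04, 2.01 and 2.19 in WT cells. It was lower without overlap too (-0.28 ± 0.08; adjusted p = 0.0754). Mybbp1a, a nucleolar regulator of ribosomal RNA synthesis, differed by -0.20 ± 0.09 with overlap. Npm1, nucleophosmin, a main protein of the nucleolar granular zone, differed by -0.04 ± 0.09. The RNA helicase Ddx21 (0.01 ± 0.09) and the snoRNP chaperone Nolc1 (0.02 ± 0.09) lay at 0 by their brightest probes. The group's median was -0.12.

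Small subunit processing was the most even group, with 4 of 8 genes lower on average, against 51.7% of all genes, 4 higher and a median of -0.04. Tsr1, needed late in the maturation of the small subunit, had 2.59, 2.55, 2.52 and 2.37 in Lck-off cells, against 2.70, 2.65 and 2.90 in WT cells. It lay lower without overlap (-0.24 ± 0.09; adjusted p = 0.192). Emg1, a methyltransferase of the small subunit RNA, had 4.18, 4.17, 4.22 and 4.28 in Lck-off cells, against 4.00, 4.12 and 3.92 in WT cells. It lay higher on every Lck-off array (0.20 ± 0.07; adjusted p = 0.175). The early assembly factors Wdr43 (-0.16 ± 0.07, no overlap) and Heatr1 (-0.12 ± 0.10), and the export factor Rrp12 (-0.09 ± 0.07), were lower on average. The early processing proteins Nop14 (0.02 ± 0.09), Imp3 (0.07 ± 0.07) and Imp4 (0.07 ± 0.12) overlapped between the groups.

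Large subunit processing had 6 of 10 genes lower on average, 3 of them without overlap, and a median of -0.09. Over all genes, 51.7% were lower on average and 12.0% lower without overlap. Nop16, a nucleolar protein known as a Myc target, had 2.24, 2.31, 2.25 and 2.28 in Lck-off cells, against 2.44, 2.51 and 2.72 in WT cells. The Lck-off arrays were tight and all lower (-0.28 ± 0.08; adjusted p = 0.0919). Rrs1, a factor that helps place the small ribosomal RNA of the large subunit (-0.25 ± 0.10; adjusted p = 0.217), and Nip7, a processing factor (-0.21 ± 0.07; adjusted p = 0.127), were lower without overlap as well. Wdr12 went the other way. It had 3.55, 3.74, 3.68 and 3.56 in Lck-off cells, against 3.34, 3.39 and 3.43 in WT cells. Every Lck-off array was higher, at 119% of the WT level (0.25 ± 0.08; adjusted p = 0.104). Wdr12 works in one complex with Pes1 and Bop1, whose differences by their brightest probes were -0.18 ± 0.11 and -0.11 ± 0.13, both with overlap. The RNA methyltransferases Nop2 (-0.07 ± 0.16) and Ftsj3 (0.08 ± 0.08), and the assembly factors Noc3l (0.09 ± 0.07) and Rrp1b (0.11 ± 0.15), overlapped between the groups.

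**Figure D2:**
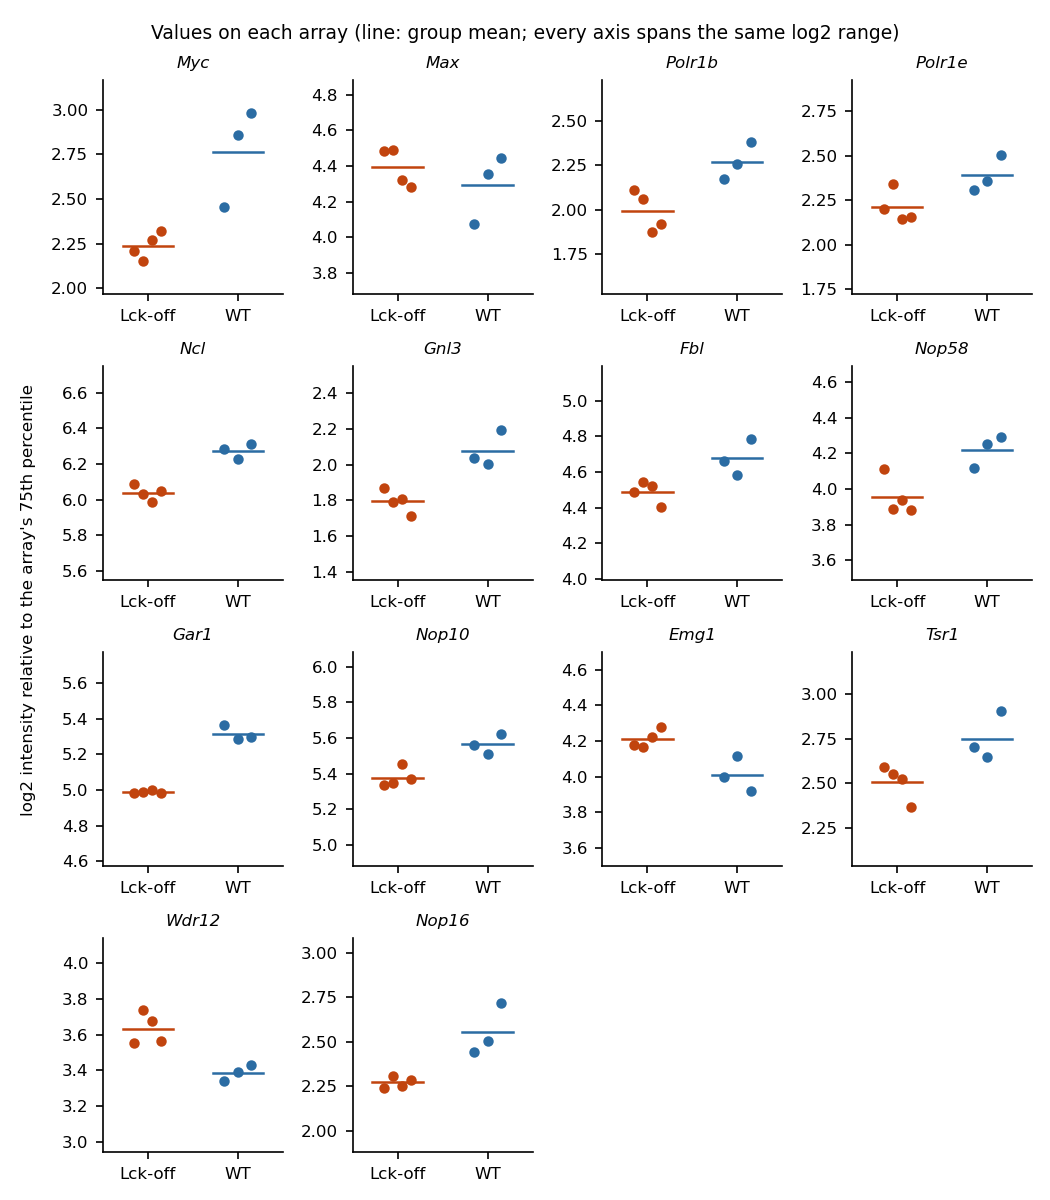
Log2 intensity relative to the array's 75th percentile on each of the 4 Lck-off arrays (orange, left) and 3 WT arrays (blue, right) for the 14 members given in full, with the group mean as a line. The Lck-off points of Gar1 lie at 4.981 to 4.997, below all WT points, while those of Wdr12 and Emg1 lie above.

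Whether the nucleolar genes moved with Myc was described array by array, each gene taken relative to its WT mean. On Lck-off replicates 1, 2, 3 and 4, Myc lay at -0.56, -0.61, -0.50 and -0.44. The median of the 38 nucleolar genes on the same arrays was -0.13, -0.02, -0.15 and -0.21. The Lck-off arrays thus ran in opposite orders: replicate 2 had the lowest Myc and the nucleolar median nearest to 0, and replicate 4 had the highest Myc of the group and the lowest nucleolar median. These Myc values lay close together, with an SD of 0.07 against an SE of 0.13 for the Myc difference. The order rests on 4 arrays and was not tested. On WT replicates 1, 2 and 3, Myc lay at -0.31, 0.09 and 0.22, and the nucleolar median at -0.04, -0.05 and 0.11. WT replicate 3 was high in both measures, with 6 of 38 nucleolar genes under the WT mean, against 28 of 38 on each of the other WT arrays. The nucleolar medians of the groups overlapped, since Lck-off replicate 2 lay above WT replicates 1 and 2, whereas the Myc values did not. Of the 38 genes, 25, 23, 31 and 29 lay under the WT mean on Lck-off replicates 1 to 4. The median over all genes lay between -0.05 and 0.04 on the Lck-off arrays and within 0.004 of 0 on the WT arrays. Lck-off replicate 2, which had the nucleolar median nearest to 0, also had the highest all-gene median (0.04) and the highest summed level of stress and sample handling genes.

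**Figure D3:**
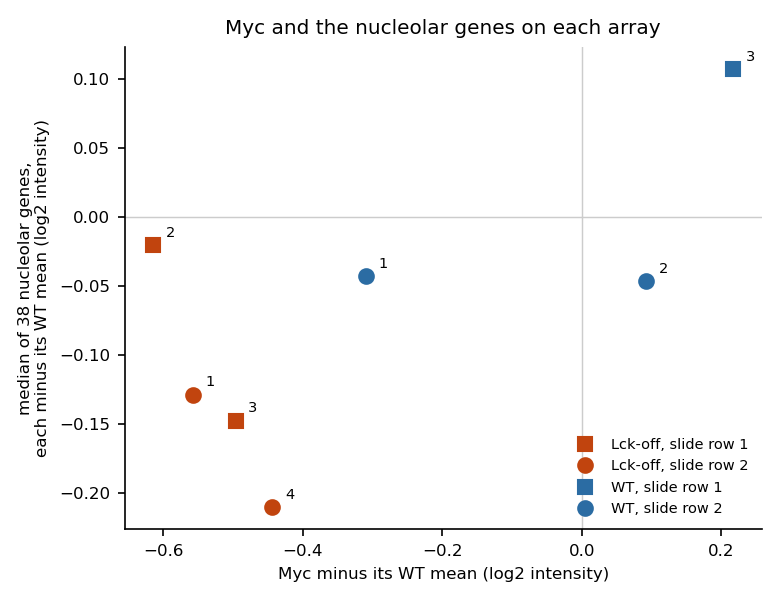
Myc (x axis) and the median of the 38 nucleolar genes (y axis) on each array, both in log2 intensity relative to the WT mean, with replicate numbers, for 4 Lck-off (orange) and 3 WT (blue) arrays; squares lie in slide row 1 and circles in slide row 2. The groups separate along the Myc axis and overlap along the nucleolar axis, where WT replicate 3 stands alone at 0.11.

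The array held 58 probes for the 40 members, and 14 genes were read by more than 1 probe. In 11 of these 14 genes all probes gave one direction. Probes of 1 gene do not always read separate sites: those of Tsr1 start at bases 2951 and 2955 of its transcript. Both probes of Wdr12 were higher without overlap (0.25 and 0.39), and both probes of Nip7 were lower without overlap (-0.21 and -0.24). Over probes, 2 of 58 were called lower and 0 higher, against 3.87% of all kept probes called lower, and 19 of 58 were lower without overlap, against 11.2% of all kept probes. The second called probe after that of Gar1 belongs to Npm1. It had 3.68, 3.78, 3.91 and 3.96 in Lck-off cells, against 4.37, 4.34 and 4.35 in WT cells. All Lck-off arrays were lower, and the difference was -0.52 ± 0.09 (SE; adjusted p over all kept probes = 0.0137). The other 4 Npm1 probes differed by -0.10 to -0.01 with overlap. This probe, A_55_P2117243, was designed on the RefSeq transcript NM_001252261 and starts at base 1127 of it; it was singled out after its value was seen. Its adjusted p was 0.0523 to 0.0538 when any one WT array was left out and 0.0243 to 0.0381 when any one Lck-off array was. It lies at chr11:33055026-33055085 on mm9, minus strand, and the brightest Npm1 probe, designed on NM_008722, at chr11:33052565-33052624. Both are shown because they disagree. The Npm1 probes that start at bases 805 and 822 were also designed on NM_001252261, and they differed by -0.10 and -0.01 with overlap.
Npm1 probe of NM_001252261: ttgcaggctggaagcaatcttgtttttcct
Npm1 brightest probe: cttggttttaagtatgtatggaatgttatg
Ddx21 and Nolc1 also depended on the probe. The Ddx21 probe that starts at base 4361 of its transcript had 2.58, 2.68, 2.68 and 2.48 in Lck-off cells, against 2.87, 2.79 and 3.08 in WT cells. Those arrays did not overlap (-0.31 ± 0.10), while the brighter probe, starting at base 2816, differed by 0.01 ± 0.09. The Ddx21 probes lie at chr10:62043317-62043376 and chr10:62044862-62044921 on mm9, minus strand.
Ddx21 probe from base 4361: aaatgatctgtcataaaccaaacagtgaag
Ddx21 probe from base 2816: ttgcatcgttttccaacatacttttagatt
The dimmer Nolc1 probe likewise lay lower without overlap (-0.21 ± 0.09), against 0.02 ± 0.09 for the brighter one. The dimmer probes of Pes1 (-0.35 ± 0.11) and Polr1e (-0.22 ± 0.10) lay lower without overlap, while their brighter probes overlapped between the groups. In Ncl, Polr1b, Tsr1 and Wdr43 the brighter probe lay lower without overlap and the dimmer one overlapped. In Nop56, 2 probes that cover nearly the same bases (chr2:130104982-130105041 and chr2:130104989-130105049 on mm9) differed by -0.13 and -0.12. The other Nop56 probe differed by 0.07, and for all of them the groups overlapped.

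**Figure D4:**
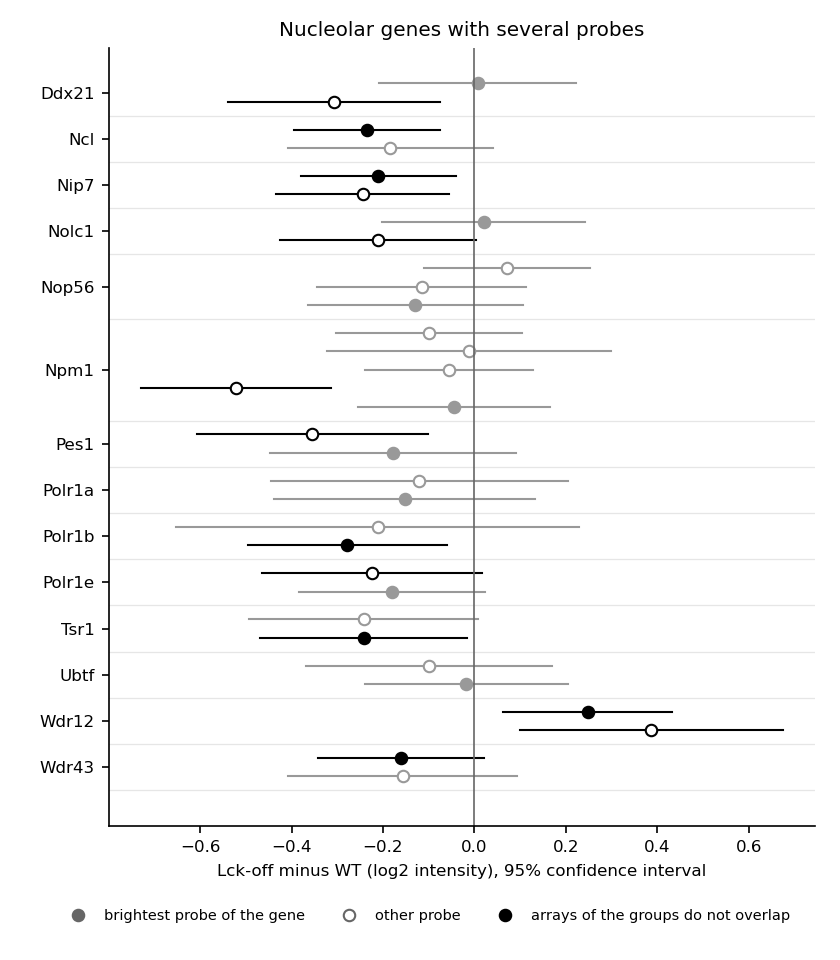
Difference, Lck-off minus WT, in log2 intensity with its 95% confidence interval for each probe of the 14 nucleolar genes with several probes; filled points are the brightest probe of a gene, and black ones have groups that do not overlap. One Npm1 probe lies at -0.52, apart from the other 4 at -0.10 to -0.01, and the 2 probes of Ddx21 and of Nolc1 fall apart as well.

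Myc and Max bind the E-box CACGTG, which reads the same on both strands. RefSeq promoter windows of GRCm38.p6, from 250 bases before to 50 bases after a gene's start, were found for 34 of 40 members; Myc, Npm1, Fbl, Bop1, Rrp12 and Rrs1 were not matched. The motif lay in a window of 8 members, or 23.5% of the 34, against 8.09% of 27025 genes with a window and 11.7% of 8863 genes that were tested on the array. In the gene lists counted further below the share ran from 4.55% (proliferation) to 37.5% (p53 targets). It was 19.3% in other ribosome biogenesis genes and 30.4% in Myc targets outside the nucleolus. The 8 members with the motif were Max, Imp4, Mybbp1a, Nop2, Pes1, Rrn3, Tsr1 and Wdr43. Their sites are shown on the gene's strand with the motif in capitals, to let the flanking bases be compared.
Max, chr12:76962234-76962263: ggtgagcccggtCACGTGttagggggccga
Imp4, chr1:34439696-34439725: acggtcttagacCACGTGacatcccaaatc
Mybbp1a, chr11:72441355-72441376: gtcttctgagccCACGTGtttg
Nop2, chr6:125131811-125131840: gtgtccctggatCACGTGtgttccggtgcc
Pes1, chr11:3963965-3963994: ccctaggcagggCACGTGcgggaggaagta
Rrn3, chr16:13780472-13780501: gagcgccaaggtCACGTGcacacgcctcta
Rrn3, chr16:13780639-13780668: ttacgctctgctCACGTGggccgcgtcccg
Tsr1, chr11:74898092-74898121: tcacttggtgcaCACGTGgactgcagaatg
Wdr43, chr17:71616220-71616249: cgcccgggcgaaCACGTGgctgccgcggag
Max lies on the minus strand and the others on the plus strand. Members with the motif had a median difference of -0.12 (n = 8) and members with a window but no motif one of -0.11 (n = 26). The groups did not overlap, lower in Lck-off cells, for 2 of the 8 and for 8 of the 26, against 12.0% of all genes. Gar1, Ncl, Gnl3, Nop16 and Wdr12 were among those with no CACGTG in the window.

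Genes next to this pathway were counted in lists that leave the members out. Other ribosome biogenesis genes had a median of -0.09 over 103 measured genes, with 0 called by limma in either direction. The mean was lower in Lck-off cells for 71 of them, or 68.9% against 51.7% of all genes. At an unadjusted p under 0.05, 8 were lower and 1 higher, smaller shares than the 11.5% and 9.94% of all genes. Without overlap, 16 were lower and 3 higher, against 12.0% and 9.80% of all genes. Other processing of the same arrays called 0 to 4 of them lower. Of these Naf1, an assembly factor of box H/ACA snoRNPs, came nearest to a call. Naf1 had 2.58, 2.42, 2.42 and 2.28 in Lck-off cells, against 2.70, 2.77 and 2.94 in WT cells. All Lck-off arrays were lower (-0.38 ± 0.10; adjusted p = 0.0595), and it was called without Lck-off replicate 1 (-0.43, adjusted p = 0.0471). Of the 81 cytosolic ribosomal protein genes, 64 had a lower mean in Lck-off cells, or 79% against 51.7% of all genes. They had a median of -0.04 and 1 lower call, or 1.23% against 4.57% of all genes. This was Rpl22l1, a paralogue of Rpl22, which fell by 0.46 ± 0.08 (adjusted p = 0.0107). The 21 measured genes of RNA polymerase III had a median of -0.03, and 71.4% of them had a lower mean in Lck-off cells.

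Known Myc targets outside the nucleolus included enzymes of nucleotide and one-carbon metabolism; a difference between this list and the nucleolar genes was not tested. Of 52 measured, 7 were called lower, or 13.5% against 4.57% of all genes, and 0 higher. Without overlap, 22 were lower, against 12.0% of all genes, and 0 higher, against 9.80%. A lower mean in Lck-off cells was found for 47, or 90.4% against 51.7% of all genes, and the median was -0.19. The 7 calls became 1 with no filter on dim probes, 2 with no scaling between arrays and 0 in either slide row alone. Shmt1, an enzyme of one-carbon metabolism, had -1.59, -1.74, -1.64 and -1.67 in Lck-off cells, against -0.97, -0.95 and -0.62 in WT cells. Shmt1 fell to 57.0% of the WT level (-0.81 ± 0.10; adjusted p = 0.0038). Ctps, which makes CTP, fell by 0.47 ± 0.07 (adjusted p = 0.0090), and Rcc1, the nucleotide exchange factor of Ran, fell by 0.42 ± 0.06 (adjusted p = 0.0085). These 3 calls held with each array left out in turn. Ctps and Rcc1 lost theirs with no scaling (adjusted p = 0.101 and 0.0686) and with no filter (0.0675 and 0.0741), and no call of the 3 held in either slide row alone (0.116 to 0.469). The other 4, named after their values were seen, were the transferrin receptor Tfrc (-0.62), the nucleoside diphosphate kinase Nme1 (-0.33), Set (-0.29) and the folate enzyme Mthfd1l (-0.29). Set and Mthfd1l lost the call with any one array left out (adjusted p 0.0656 to 0.144 and 0.0631 to 0.109), Nme1 with any one but WT replicate 2 (0.086 to 0.142), and Tfrc without WT replicate 1 or 2 or Lck-off replicate 4 (0.0551 to 0.0762). The list's count was 4 when Lck-off replicate 1 or 2 or any one WT array was left out, 3 when Lck-off replicate 4 was and 5 when Lck-off replicate 3 was.

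Of 11 measured genes of the wider Myc network, 0 were called lower and 1 higher, with a median of 0.09. The list pools genes of unlike roles, so this median gives no direction of Myc activity. Over all genes, 4.57% were called lower and 3.80% higher. Fbxw7, the ubiquitin ligase adaptor that marks Myc for degradation, had 1.54, 1.51, 1.54 and 1.52 in Lck-off cells, against 1.07, 1.30 and 1.17 in WT cells. It rose by 0.35 ± 0.07 (adjusted p = 0.0307) and lay higher on all 4 Lck-off arrays, though with 1 array left out the call was kept only without WT replicate 2 (adjusted p 0.0394 to 0.0928 over the 7). Of 22 genes of the mTORC1 pathway, which couples nutrients to ribosome production, 16 had a lower mean, or 72.7% against 51.7% of all genes. The list pools activators with inhibitors of the pathway, and 1 of its genes was called lower, or 4.55% against 4.57% of all genes. This was the activating GTPase Rheb, which fell by 0.37 ± 0.08 (adjusted p = 0.0278). The Rheb call held when replicate 2 of either group was left out and was lost with any other array left out (adjusted p 0.0457 to 0.0948). Of 17 p53 targets, a pathway that ribosome assembly faults can set off, 2 were called lower, or 11.8% against 4.57% of all genes, and 0 higher. Bbc3, which encodes the pro-apoptotic protein Puma, fell by 1.70 ± 0.17 (adjusted p = 0.0014), to 30.8% of the WT level. Phlda3 fell by 0.36 ± 0.08 (adjusted p = 0.0327) and was called without Lck-off replicate 2 but not without any other array (adjusted p 0.0446 to 0.107). Among 21 proliferation genes, 5 were called lower, or 23.8% against 4.57% of all genes, and 1 higher, with a median of -0.27. Stmn1, a microtubule regulator, fell by 1.87 ± 0.14 (adjusted p = 0.00058), Uhrf1, which maintains DNA methylation in dividing cells, fell by 0.96 ± 0.09 (adjusted p = 0.0013), and the mitotic gene Birc5 fell by 1.05 ± 0.15 (adjusted p = 0.0056). Cdc20, a mitotic activator, rose by 0.60 ± 0.10 (adjusted p = 0.0124) and missed the threshold without WT replicate 2 (0.56, adjusted p = 0.0551). Top2a and Mki67, named after their values were seen, made up the rest of the lower calls. Top2a was well above background on 3 WT arrays and 0 Lck-off arrays, so it passed the filter through the WT arrays alone. Mki67 was well above background on 3 of the 4 Lck-off arrays. With 1 array left out, its call held only without Lck-off replicate 2 (adjusted p 0.04 to 0.0917). The part of dividing cells in the nucleolar differences was not tested.

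**Figure D5:**
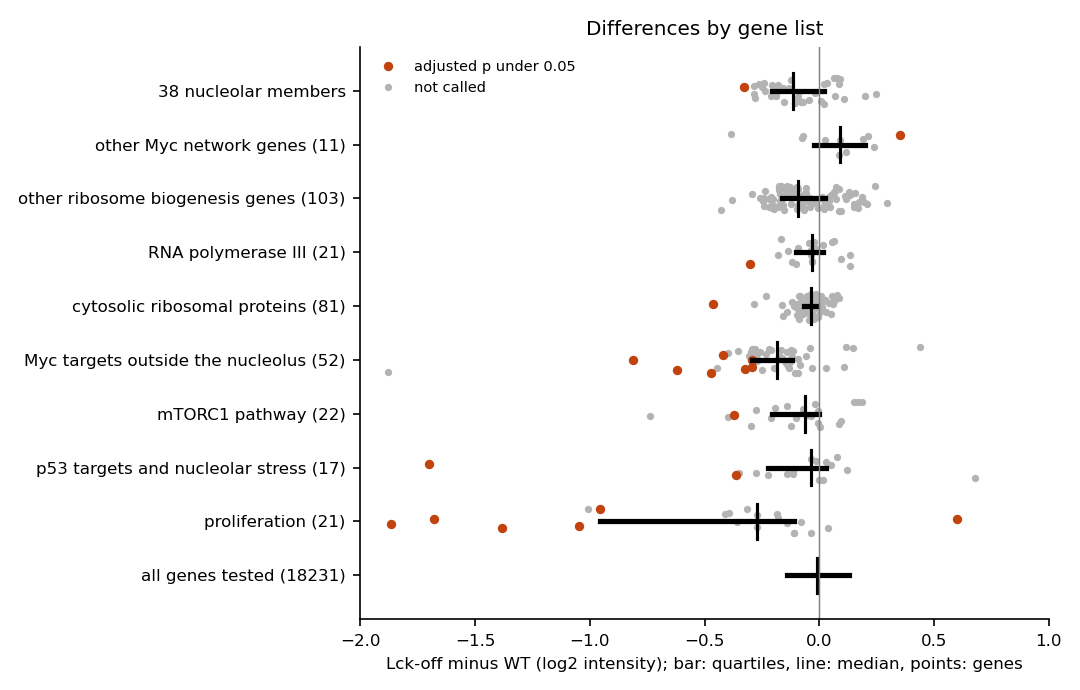
Differences, Lck-off minus WT, in log2 intensity for the 38 nucleolar genes, 8 neighbouring gene lists and all 18231 genes tested; points are genes (orange if called), bars the quartiles and lines the median, and the number of genes is in parentheses. The nucleolar median lies at -0.11, that of other ribosome biogenesis genes at -0.09, that of Myc targets outside the nucleolus at -0.19 and that of all genes near 0.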

How the data were processed

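Total RNA of sorted lymph node T cells (RNeasy, Cy3, per the labels' protocols) was measured on 7 one-colour arrays of 1 slide; slide row 1 held Lck-off replicates 2 and 3 and WT replicate 3. Per the file headers, the authors' intensity values came from Feature Extraction 10.7.3.1 (array design 028005, probe positions on mm9), and the processed intensity was background subtracted with no scaling between arrays. Per the file headers, flags and spot types come from the same software. The deposited log2 value table (limma, per the submitters' processing notes; steps not given in the sources used here) was an alternative; its columns followed log2 mean intensity (r 0.9993 to 0.9998) with medians of 6.34 to 6.35, and its centring is unknown.

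Log2 processed intensity was taken relative to each array's 75th percentile, non-uniform spots were left out, and a probe entered the fit (25578 of 55681 did) if 3 or more of the 7 arrays had it well above background. A gene was its brightest kept probe (18231 of 34797 names). Groups were compared with limma 3.58.1 in R 4.3.3, tested on simulated data, with Benjamini-Hochberg adjustment over all genes, or over all kept probes for single probes. The median SE of a difference was 0.11 over all genes and 0.0882 over the members; the number of arrays limits the precision. Per-array values are printed for Myc, Max, called members and the 2 members of smallest p in each role; from each list every called gene is named if at most 4, otherwise the 3 of smallest p in each direction; 1 gene that this rule names is not reported here. The members and lists were chosen with earlier results of these data known. Probe sequences are from the array annotation, promoters from RefSeq GRCm38.p6; whether a probe lies in coding sequence or UTR was not settled.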

Additional observations from a re-analysis of the deposited data

Results flagged for a closer look

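Among 61 genes looked at, 2 had 1 Lck-off array far from the other 3. Nip7 had 4.29 on Lck-off replicate 4, below the 4.41 to 4.44 of the other Lck-off arrays and the 4.58 to 4.64 of the WT arrays. Mthfd1l had 4.33 on Lck-off replicate 4, above the other Lck-off arrays at 4.24 and below the WT arrays at 4.53 to 4.59. Chance marks about 1 in 20 such groups.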

How the results depend on the processing

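Across 15 other ways of processing the arrays and 7 fits that left out 1 array each, 0 members were called higher and no called value changed sign. The count of members called lower, 1 as reported, was 2 with normexp background correction, the median as scale, a filter on all 7 arrays or array weights, 3 with the deposited table, 4 with quantile normalization, 5 with trended and robust moderation, 0 with no scaling, no filter, the replicate block or either slide row alone, and 0 to 1 with 1 array left out. Those called besides Gar1 were Myc, Gnl3, Ncl and Nop16. Myc passed the threshold with normexp (-0.49), the median as scale (-0.53), quantile normalization (-0.52), the deposited table (-0.50), the filter on all 7 arrays (-0.53), trended and robust moderation (-0.53) and array weights (-0.52), and ran from -0.68 to -0.42 with 1 array left out. Members lower without overlap numbered 2 with no scaling, 27 in slide row 1, 22 in slide row 2, where fewer arrays make a gap more likely by construction, and 13 to 17 with 1 array left out; members higher without overlap numbered 1 with quantile normalization or the deposited table, 4 and 6 in the slide rows, and 2 to 4 with 1 left out. The members' median was -0.20 in slide row 1 and -0.17 to -0.05 with 1 left out. The number of all genes called, 1527 in the reported fit, were 717 with no filter, 374 with the replicate block, 105 in slide row 1, 0 in slide row 2 and 960 to 1405 with 1 left out. Same-numbered arrays deviated from their group means with correlations of 0.11, 0.05 and -0.01, so that the numbers were not taken to pair samples; with the replicate block Myc was at -0.56 (adjusted p = 0.164) and 0 members were called. Myc targets outside the nucleolus had 12 lower calls with quantile normalization, 14 with trended moderation, 4 with slide row as a block, 2 with no scaling, 1 with no filter, 0 with the replicate block or a slide row alone, and 3 to 5 with 1 left out; with the block Shmt1, Ctps and Rcc1 had adjusted p of 0.0629, 0.119 and 0.148. Lower calls in the other lists were 0 to 4 for ribosome biogenesis (4 with the deposited table, 3 with trended moderation), 0 to 8 for proliferation (8 with 4 settings, 4 to 7 with 1 left out), 0 to 2 for mTORC1, p53 targets and ribosomal proteins, and 0 to 1 for RNA polymerase III and the Myc network; higher calls were 0 to 1 in each list. Npm1 probe A_55_P2117243, of NM_001252261, tried under the same alternatives after its value was seen, ran from -0.56 to -0.46 and lost its call with no scaling (adjusted p = 0.0963), no filter (0.115), the replicate block (0.111) and either slide row alone. The causes were not tested.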
